A study of Mus musculus with 18 samples.

Results

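The miR-17-92 cluster is a group of 6 microRNAs cut from a single primary transcript, the RNA of the host gene Mir17hg. Its members were taken as the rows miR-17, miR-18a, miR-19a, miR-20a, miR-19b and miR-92a of a table of 583 mature microRNAs in mammary tumours, and all 6 passed the filter of a mean of at least 10 CPM that left 281 tested microRNAs. The tumours came from 18 groups, each the F1 offspring of 1 AKXD recombinant inbred strain and FVB/N-TgN(MMTV-PyVT)634Mul mice. AKXD strains descend from AKR/J and DBA/2J mice. All groups carry the polyoma virus middle T oncogene, driven by the mouse mammary tumour virus promoter, and there was no untreated or transgene-free group. The strains are numbers 2, 3, 7, 9, 10, 11, 13, 14, 16, 18, 20, 21, 22, 23, 24, 25, 27 and 28, and for the mice neither age nor number is stated in the labels. Tumour RNA was pooled by strain and sequenced as 1 small RNA library per strain. Strain, pool and library therefore cannot be told apart, no pair of strains has a replicate check, and p-values measure only how values move together over these 18 libraries.

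A microRNA is a short RNA that guides the silencing complex to messenger RNAs, mainly by pairing of its seed, the bases near its 5′ end. The miR-17-92 cluster is known as an oncogenic cluster that is transcribed under MYC and E2F factors and is amplified or raised in lymphomas and several carcinomas. Its members lower, among others, the cell death factor BIM, and the miR-19 members carry much of its oncogenic activity in mouse B-cell lymphoma. The cluster has a pair of related clusters in mammals, miR-106b-25 in an intron of Mcm7 and miR-106a-363 on the X chromosome.

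In the GRCm38 annotation the host gene Mir17hg, a long non-coding RNA, lies on the plus strand at chr14:115042879-115046727. Its transcript has 2 exons, and all 6 hairpins lie in exon 2 within 836 bases, in the order Mir17 (chr14:115043671-115043754), Mir18 (chr14:115043851-115043946), Mir19a (chr14:115044000-115044081), Mir20a (chr14:115044157-115044263), Mir19b-1 (chr14:115044305-115044391) and Mir92-1 (chr14:115044427-115044506). The submitters' processing notes name the older build mm9, and the deposited table has no coordinates. The mature sequences of the members are shown because the seed and a few other bases are what tells these rows apart. They are RefSeq's for GRCm38.p6, 5′ to 3′, with the seed (bases 2 to 8) in capitals, and names without a star were taken as the guide arms.
miR-17: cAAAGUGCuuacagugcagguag
miR-20a: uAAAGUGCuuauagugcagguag
miR-18a: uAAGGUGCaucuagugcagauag
miR-19a: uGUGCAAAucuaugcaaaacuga
miR-19b: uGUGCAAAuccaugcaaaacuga
miR-92a: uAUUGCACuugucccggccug

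The 6 members carry 4 seeds. miR-17 and miR-20a share one and differ at 2 of 23 bases (C1U and C12U, miR-17's base first, positions counted from the 5′ end). miR-19a and miR-19b share another and differ at 1 of 23 bases (U11C, miR-19a's base first). The seed of miR-18a differs from that of miR-17 at 1 base (A4G, miR-17's base first), and miR-92a has the seed of miR-25. RefSeq has 1 gene copy each for miR-17, miR-18a, miR-19a and miR-20a. It has 2 copies each for miR-19b and miR-92a, on chromosome 14 and in the miR-106a-363 cluster on chromosome X, so those rows cannot be split between the clusters. How reads that fit several of these near-identical rows were assigned is not stated in the labels, and values of such rows are uncertain to that extent.

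Related microRNAs outside the cluster are shown for the same reason, since the results return to them. miR-106b and miR-93 carry the miR-17 seed and come from the miR-106b-25 cluster on chromosome 5. miR-20b and miR-106a carry it from chromosome X, and miR-25 (chromosome 5) and miR-92b (chromosome 3) carry the miR-92a seed.
miR-106b: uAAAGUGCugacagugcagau
miR-93: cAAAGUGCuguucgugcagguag
miR-20b: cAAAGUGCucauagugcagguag
miR-106a: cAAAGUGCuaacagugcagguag
miR-25: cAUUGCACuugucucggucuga
miR-92b: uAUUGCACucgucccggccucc

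The libraries held between 4.36 (strain 7) and 14.9 (strain 27) times 1000000 miRNA reads, with a median of 11.7 times 1000000. Levels are given as CPM, reads per 1000000 reads of the library, corrected by a factor per library that lay between 0.671 (strain 14) and 1.67 (strain 28), so a CPM is not a share of a library's reads. Strains 10, 13, 14 and 20 stood apart from the rest on the first principal component of the tested microRNAs, which held 27.6% of the variance, and results that rest on them are given with and without them. All 5 epithelial markers (miR-200a, miR-200b, miR-200c, miR-141 and miR-429) were present in every library, with sums between 28514 CPM (strain 16) and 54694 CPM (strain 25). The 4 skeletal muscle markers were present as well, between 22336 (strain 9) and 303045 CPM (strain 14).

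All 6 members were found in every tumour pool, at levels that differed by up to 28.7-fold between members on average. The whole cluster took 0.184% of the miRNA reads in strain 14 (95% exact binomial interval 0.182 to 0.186), a median of 0.498%, and 0.825% in strain 28 (0.818 to 0.833). Summed over members it averaged 4707 ± 889 CPM (SD, n = 18). miR-20a was the most abundant member, at 2329 ± 538 CPM, and ranked 42nd of the 281 tested microRNAs. miR-17, which shares its seed, followed at 887 ± 118 CPM and rank 67. miR-92a averaged 732 ± 209 CPM, miR-18a 427 ± 160 CPM, miR-19b 250.3 ± 94.4 CPM and miR-19a 81.0 ± 26.4 CPM. CPM of different microRNAs also depend on how well each is captured in a library, which was not measured here.

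The order of the members was nearly the same in every strain. miR-20a was above miR-17 in 18 of 18 strains, by 1.37 ± 0.25 on the log2(CPM + 1) scale (SD, n = 18). miR-18a was above miR-19b in 18 of 18 strains, by 0.77 ± 0.35, and miR-19b above miR-19a in 18 of 18, by 1.58 ± 0.23. Between miR-17 and miR-92a the order changed from strain to strain. miR-17 was higher in 14 strains and lower in strains 2, 16, 18 and 21, with a mean difference of 0.31 ± 0.43. miR-92a was above miR-18a by 0.84 ± 0.54, in 16 of 18 strains, the exceptions being strains 3 and 9. The position of a member along the transcript was not its position by level, since the 4th and 1st hairpins gave the highest values and the 3rd the lowest.

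**Figure D1:**
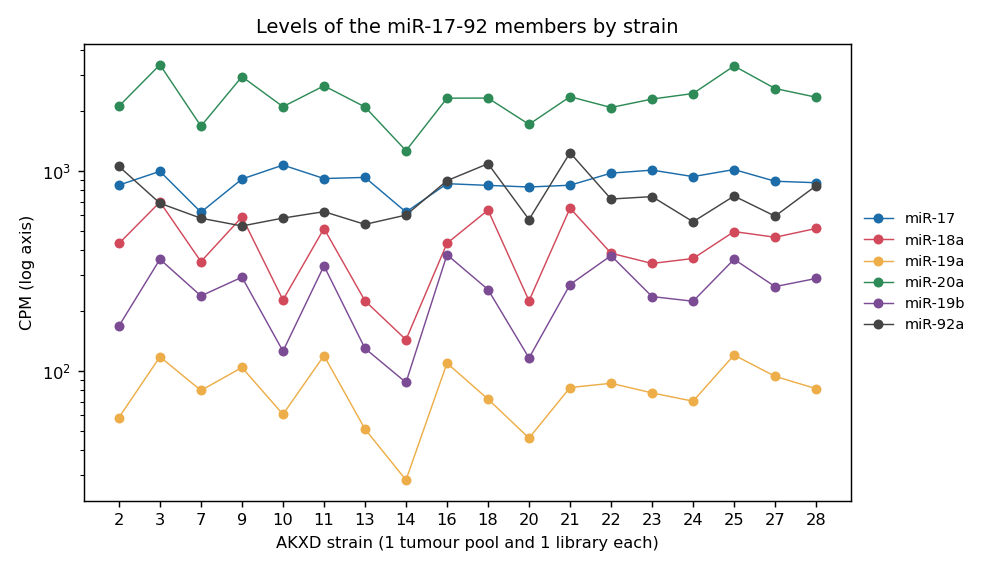
CPM of each member (log axis) in the 18 AKXD strains, 1 point per strain library, joined by lines only to guide the eye. miR-20a is at the top and miR-19a at the bottom in all strains, strain 14 has the lowest point for 4 members, and the miR-92a and miR-17 lines cross.

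miR-17 was the steadiest member, with 621 CPM (strain 7) as its lowest and 1068 CPM (strain 10) as its highest value, with a median of 898 CPM. It stood at 1068 CPM in strain 10, 1014 in strain 25, 1008 in strain 23, 994 in strain 3, 973 in strain 22, 935 in strain 24, 927 in strain 13, 914 in strain 11, 909.6 in strain 9, 887 in strain 27, 872 in strain 28, 862 in strain 16, 848 in strain 2, 847 in strain 21, 845 in strain 18, 829.7 in strain 20, 622 in strain 14 and 621 in strain 7. All strains other than 14 and 7 thus lay close together. Its SD over strains was 0.21 on the log2(CPM + 1) scale, against 0.02 from read counting alone, and only 4 of the 281 tested microRNAs had a smaller SD. Without strain 7, or without strain 14, the SD was 0.17. The median SD of all tested microRNAs was 0.45, with quartiles at 0.34 and 0.61.

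miR-20a spread more, between 1261 and 3389 CPM with a median of 2308 CPM and an SD of 0.35 log2. It stood at 3389 CPM in strain 3, 3341 in strain 25, 2955 in strain 9, 2659 in strain 11, 2578 in strain 27, 2434 in strain 24, 2346 in strain 21, 2332 in strain 28, 2309 in strain 18, 2307 in strain 16, 2283 in strain 23, 2103 in strain 2, 2091 in strain 10, 2085 in strain 13, 2072 in strain 22, 1706 in strain 20, 1672 in strain 7 and 1261 in strain 14. Strains 3, 25 and 9 were set above the others, and strain 14 was below strain 7 by 0.41 log2, the largest step in the order.

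miR-18a and miR-19b were the most variable members, with SDs of 0.63 and 0.64 log2. miR-18a stood at 698 CPM in strain 3, 651 in strain 21, 636 in strain 18, 588 in strain 9, 515 in strain 28, 514 in strain 11, 497 in strain 25, 465 in strain 27, 434 in strain 16, 433 in strain 2, 387 in strain 22, 364 in strain 24, 352 in strain 7, 344 in strain 23, 226 in strain 10, 224 in strain 20, 224 in strain 13 and 143 in strain 14. Strains 10, 13, 14 and 20 formed the low end, and strain 3 was 4.88-fold above strain 14. miR-19b stood at 380.5 CPM in strain 16, 377 in strain 22, 361 in strain 3, 361 in strain 25, 335 in strain 11, 294 in strain 9, 289.5 in strain 28, 269.8 in strain 21, 264 in strain 27, 255 in strain 18, 237 in strain 7, 235 in strain 23, 223 in strain 24, 168 in strain 2, 129 in strain 13, 125 in strain 10, 116 in strain 20 and 87.4 in strain 14. The same 4 strains were lowest, and strain 2 stood between them and the rest.

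miR-19a, the least abundant member, followed miR-19b closely. It stood at 119.9 CPM in strain 25, 119 in strain 11, 118 in strain 3, 109 in strain 16, 104 in strain 9, 93.8 in strain 27, 86.6 in strain 22, 82.5 in strain 21, 81.4 in strain 28, 79.8 in strain 7, 77.5 in strain 23, 72.2 in strain 18, 70.5 in strain 24, 60.6 in strain 10, 58.4 in strain 2, 51.1 in strain 13, 46.1 in strain 20 and 28.4 in strain 14. Its SD was 0.53 log2 (0.42 without strain 14), and strain 20 was above strain 14 by 0.68 log2.

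miR-92a, the last hairpin of the transcript, had another order of strains. It stood at 1231 CPM in strain 21, 1085 in strain 18, 1051 in strain 2, 892 in strain 16, 842 in strain 28, 748 in strain 25, 743 in strain 23, 722 in strain 22, 688 in strain 3, 625 in strain 11, 600.5 in strain 14, 593 in strain 27, 580.1 in strain 10, 579 in strain 7, 571 in strain 20, 556 in strain 24, 539.6 in strain 13 and 529.7 in strain 9. Strain 14 was in the middle and strain 9, among the 4 highest for miR-20a and miR-18a, was the lowest. Its SD was 0.38 log2.

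Neighbours in these orders often differed by less than reading depth can resolve. Of the 17 steps between neighbouring strains, 13 lay within 2 counting SDs for miR-17 and for miR-19a, 10 for miR-19b and miR-92a, and 8 for miR-18a and miR-20a. Strain 14 had the lowest value of 4 members and strain 20 was among the 4 lowest strains for all 6. Strain 3 was among the 4 highest for 5 members and strain 25 for 4. Strain 10 had the highest miR-17 value but was among the 4 lowest strains for miR-18a and miR-19b.

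Without strains 10, 13, 14 and 20, 4 of the members spread much less. The SD fell to 0.33 log2 for miR-18a, 0.32 for miR-19a, 0.27 for miR-20a and 0.35 for miR-19b over those 14 strains. It was 0.18 for miR-17 and 0.38 for miR-92a. When libraries were scaled by total reads alone the SDs were larger, 0.42 for miR-17, 0.90 for miR-18a, 0.77 for miR-19a, 0.58 for miR-20a, 0.91 for miR-19b and 0.61 for miR-92a. The level of miR-18a and miR-19b also moved with the scaling factor of the library (Spearman rho 0.72 and 0.77 over 18 strains, as a description), less so that of miR-19a (0.56), miR-92a (0.51) and miR-20a (0.42), and that of miR-17 did not (-0.01). Strains 14, 10, 13 and 20 had the lowest factors (0.671, 0.714, 0.771 and 0.776) and also the lowest miR-18a and miR-19b values. These rho values were not computed without them. The part of the scaling in the levels was not tested, and ratios within a library, which no scaling changes, are given for this reason.

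Since all 6 are cut from 1 transcript, the question was how far their mature levels moved together over the panel. Of the 15 pairs of members, 5 were positively correlated at an adjusted p under 0.05 (Spearman rho of log2(CPM + 1), permutation test, Benjamini-Hochberg over all 39340 pairs of tested microRNAs), and none was negatively correlated. At an unadjusted p under 0.05 there were 7 pairs (46.7%), all positive, against 19.6% of all pairs in either direction. Over all pairs of tested microRNAs 1.78% were called positive and 1.09% negative, and the median rho was 0.01. Among members 14 of 15 pairs had a rho above 0, with a median of 0.44. The libraries are shared by all pairs, as is their scaling, so these pairs are not independent of each other. The called pairs joined miR-18a, miR-19a, miR-20a and miR-19b, and no pair with miR-17 or miR-92a was called. With 1 strain left out 2 to 5 member pairs were called: 2 without strain 3, 10, 13 or 20, and 3 without strain 2, 7, 14, 23, 24 or 28.

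The tightest pair was miR-19a with miR-19b, the pair with 1 base between them. Its rho was 0.92 (adjusted permutation p = 0.00504, the smallest adjusted value over all pairs) and its Pearson r 0.94 (adjusted permutation p = 0.00296). Without strains 14 and 20, the farthest from the miR-19a median, r was 0.90. It was called with each strain left out in turn (rho 0.88 to 0.97). Without strains 10, 13, 14 and 20 rho was 0.82 over 14 strains, with an adjusted permutation p of 0.148.

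miR-18a with miR-20a followed at rho 0.79 (adjusted permutation p = 0.0218) and r 0.79 (adjusted permutation p = 0.00777), or r 0.68 without strains 14 and 13. The call was lost without strain 16, 22 or 28 (lowest rho 0.71). miR-19a with miR-20a had rho 0.75 (adjusted permutation p = 0.03) and r 0.85 (adjusted permutation p = 0.00296), or r 0.69 without strains 14 and 20, and its call was lost without strain 3, 10, 13, 20 or 25 (lowest rho 0.71). miR-18a with miR-19a and with miR-19b both had rho 0.71, with adjusted permutation p-values of 0.0464 and 0.0481. Their Pearson r was 0.83 and 0.85 (adjusted permutation p = 0.00474 and 0.00296), and without strains 14 and 13 it was 0.67 and 0.73. These last calls were close to the threshold and were lost in 13 and 12 of the 18 panels with 1 strain left out (lowest rho 0.65 and 0.62). Over the 14 strains without 10, 13, 14 and 20 none of the 15 pairs was called by this permutation test, against 12 positive and 2 negative calls among all pairs of that smaller panel, and 3 of the 15 had an unadjusted p under 0.05, against 11.7% of all pairs. There miR-18a with miR-20a had rho 0.56, miR-19a with miR-20a 0.71, miR-18a with miR-19a 0.42 and miR-18a with miR-19b 0.42 (adjusted permutation p = 0.238 to 0.582).

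miR-17 and miR-20a, which share a seed, did not pass the test together. Their rho was 0.44 (adjusted permutation p = 0.302), although Pearson's r was 0.71 (adjusted permutation p = 0.0302). That r was 0.36 without strains 7 and 14, and so rested on them. miR-20a with miR-19b had rho 0.60 (adjusted permutation p = 0.122) and r 0.74 (adjusted permutation p = 0.0137). miR-17 had rho 0.36 with miR-19a, 0.28 with miR-19b, 0.05 with miR-18a and -0.12 with miR-92a (adjusted permutation p = 0.426 to 0.945). miR-92a had rho 0.49 with miR-18a, 0.37 with miR-19b, 0.24 with miR-19a and 0.14 with miR-20a (adjusted permutation p = 0.234 to 0.81). A p above the threshold does not show that a pair moved apart. By Pearson's r, 7 of the 15 member pairs passed, and 3.47% of all pairs were called positive.

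These counts depended on how libraries were scaled. With total reads alone all 15 member pairs were called, with a median rho of 0.87, but so were 6823 of all pairs in the positive direction. With upper quartile scaling 4 member pairs were called and with median of ratios scaling 3, all of them among the 5 above. Positive calls among all pairs were then 964 and 736, against 701 with the main scaling. After the first principal component was removed 5 were called, 3 of them the same: miR-18a with miR-20a, miR-19a with miR-20a, and miR-19a with miR-19b. There only 200 of all pairs were called positive. The other member pairs called after that removal were miR-17 with miR-19a (rho 0.79) and miR-17 with miR-19b (0.88).

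**Figure D2:**
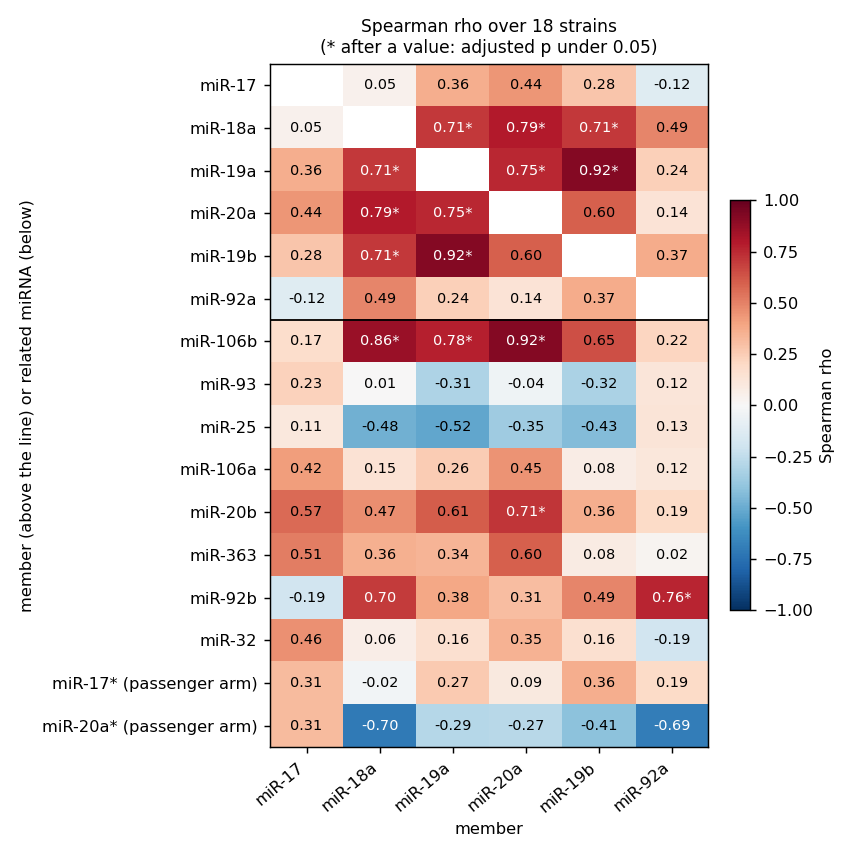
Spearman rho over the 18 strains of each member (columns) with the other members (above the line) and with related microRNAs and passenger arms (below it), where a star after a value marks an adjusted p under 0.05 over all pairs of tested microRNAs. miR-18a, miR-19a, miR-20a and miR-19b form the block of high values, and miR-106b reaches 0.92 with miR-20a.

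The ratio of a pair of members in the same library does not depend on scaling, and the steadiest ratios were those of the pairs that share a seed. The ratio of miR-19a to miR-19b was 0.230 in strain 22, had a median of 0.331, and reached 0.483 in strain 10. Its SD of 0.23 log2 was larger than the 0.06 from read counting, and smaller than that of all but 0.241% of the pairs of tested microRNAs. The ratio of miR-17 to miR-20a was 0.293 in strain 3, had a median of 0.374 and was 0.511 in strain 10. Its SD was 0.25 log2, and 0.381% of all pairs had a smaller one. The median SD over all pairs was 0.70, with the lower quartile at 0.53 and the lowest decile at 0.42.

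The other ratios moved more. miR-19b to miR-92a was 0.146 in strain 14 and 0.555 in strain 9, with an SD of 0.64 log2, and 40.8% of all pairs had a smaller one. miR-19a to miR-92a had an SD of 0.61 log2, and miR-18a to miR-92a 0.54. miR-17 to miR-19b was 2.27 in strain 16, had a median of 3.23 and was 8.51 in strain 10, an SD of 0.60 log2. Strain 10 had the highest ratio of miR-17 to miR-18a, to miR-20a, to miR-19b and to miR-92a. miR-17 to miR-18a was 4.72 there, against a panel median of 1.97. Over the 14 strains without 10, 13, 14 and 20, the SD of miR-17 to miR-18a was 0.35 log2, of miR-17 to miR-19b 0.32, and of miR-19b to miR-92a still 0.55.

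**Figure D3:**
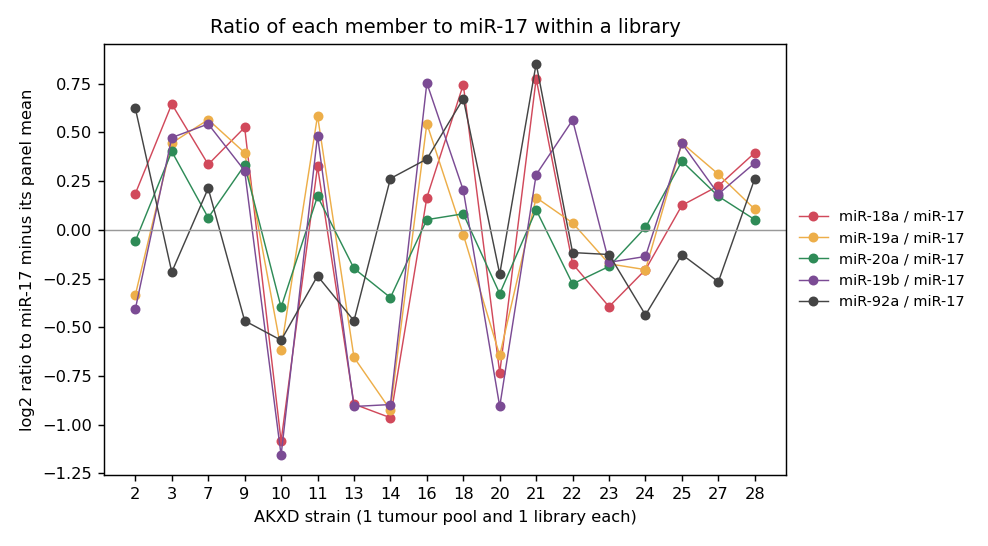
log2 ratio of each other member to miR-17 in the same library, minus the mean of that ratio over the 18 AKXD strains, 1 point per strain. In strains 10, 13, 14 and 20 the miR-18a, miR-19a and miR-19b ratios fall to the bottom together while the miR-20a ratio moves less, and the miR-92a points follow another order.

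As shares of the cluster's own reads, miR-20a held 43.2% in strain 21, a median of 48.8%, and 54.9% in strain 25. miR-17 held 15.6% (strain 21), a median of 17.9% and 25.7% (strain 10). miR-92a held 9.85% (strain 9), a median of 15.7% and 22.7% (strain 21). miR-92a had its highest share in the strain where both members with the miR-17 seed had their lowest. These shares depend on each other, since a high share of a member lowers the rest. With miR-19b and miR-92a left out, miR-17 was lowest in strain 3 (19.1%) and miR-20a in strain 22 (58.9%). miR-18a held 5.22% (strain 14), a median of 9.00% and 12.2% (strain 18). miR-19b held 3.02% (strain 10), a median of 5.21% and 8.15% (strain 22), and miR-19a 1.04% (strain 14), a median of 1.65% and 2.31% (strain 11). The exact 95% intervals of these extremes were at most 0.953 percentage points wide and cover counting error only, since PCR copies of a molecule are not told apart. With miR-19b and miR-92a left out, since they also have a copy on chromosome X, the median shares were 61.4% for miR-20a, 23.1% for miR-17, 11.6% for miR-18a and 2.12% for miR-19a.

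The opposite arm of a hairpin, the passenger arm or star form, is usually degraded, and it came from the same transcript but was not used to choose the members. miR-17* was found at 31.4 CPM (strain 27), a median of 41.7 and 57.7 CPM (strain 16), and miR-20a* at 5.15 (strain 18), a median of 11.3 and 27.2 CPM (strain 13). miR-18a* averaged 8.41 ± 2.59 CPM, below the filter. miR-19a* had 0 to 9 reads per library and miR-92a* 0 to 7, where 3 reads, the limit that a count of 0 allows, correspond to 0.193 to 0.734 CPM. The guide arm therefore dominated in every hairpin and every strain where both could be measured. miR-17* stood at 0.0354 (strain 27) to 0.0708 (strain 14) of miR-17, miR-18a* at 0.0117 (strain 3) to 0.0396 (strain 14) of miR-18a, and miR-20a* at 0.00223 (strain 18) to 0.0130 (strain 13) of miR-20a. The median ratios were 0.0456, 0.0201 and 0.00465.

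Like its guide, miR-17* varied little, with an SD of 0.22 log2 that put it 8th from the bottom of the 281 tested microRNAs, where miR-17 was 5th. The arms of a hairpin did not pass the test as pairs. miR-17 with miR-17* had rho 0.31 (adjusted permutation p = 0.507), and rho 0.91 (called) when libraries were scaled by total reads alone. miR-20a with miR-20a* had rho -0.27 (adjusted permutation p = 0.574), and 0.21 without strains 10, 13, 14 and 20. Against other members miR-20a* had rho -0.70 with miR-18a and -0.69 with miR-92a (adjusted permutation p = 0.0513 and 0.0654), neither of which passed. With miR-19b it had rho -0.41, with miR-19a -0.29 and with miR-17 0.31, none of them called. By Pearson's r, miR-20a* passed with miR-18a (-0.67, adjusted permutation p = 0.0457) and with miR-92a (-0.76, adjusted permutation p = 0.00983).

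Outside the cluster, the microRNA closest to miR-20a over the panel was miR-106b, which has its seed and differs from it at 3 of 21 bases (U10G, U12C and G20A, miR-20a's base first). miR-20a had a median of 2308 CPM and miR-106b a median of 1721 CPM, with a lowest value of 798 CPM (strain 14) and a highest of 2752 CPM (strain 25). Both were lowest in strain 14, and both were high in strains 3, 25 and 9. Their rho was 0.92 (adjusted permutation p = 0.00504) and r 0.83 (adjusted permutation p = 0.00428), or r 0.77 without strains 14 and 3. miR-18a with miR-106b had rho 0.86 (adjusted permutation p = 0.00504) and r 0.90 (adjusted permutation p = 0.00296), or r 0.86 without strains 14 and 13. miR-19a with miR-106b had rho 0.78 (adjusted permutation p = 0.0224) and r 0.82 (adjusted permutation p = 0.00296). The first 2 of these calls held with each strain left out in turn, and the call for miR-19a was lost without strain 13 or strain 20. Over the 14 strains without 10, 13, 14 and 20 the rho values were 0.82, 0.75 and 0.52, none of them called.

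The other products of the miR-106b-25 cluster did not share this. miR-93, the most abundant microRNA with the miR-17 seed at 4103 ± 937 CPM, had rho -0.04 with miR-20a and 0.23 with miR-17. miR-25 had rho between -0.52 and 0.13 with the members. miR-106b itself had rho -0.22 with miR-93 and -0.57 with miR-25 (adjusted permutation p = 0.668 and 0.148), although they come from 1 transcript. Of the 18 pairs between the clusters 3 were called positive (16.7%, against 1.78% of all pairs) and none negative. At an unadjusted p under 0.05 there were 4 positive and 2 negative pairs, against 10.3% and 9.27% of all pairs. By Pearson's r 4 were called positive and none negative, against 3.47% and 2.81% of all pairs. The ratio of miR-20a to miR-106b was 0.993 in strain 27, had a median of 1.25 and was 2.38 in strain 10, an SD of 0.37 log2, larger than that of miR-17 to miR-20a.

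**Figure D4:**
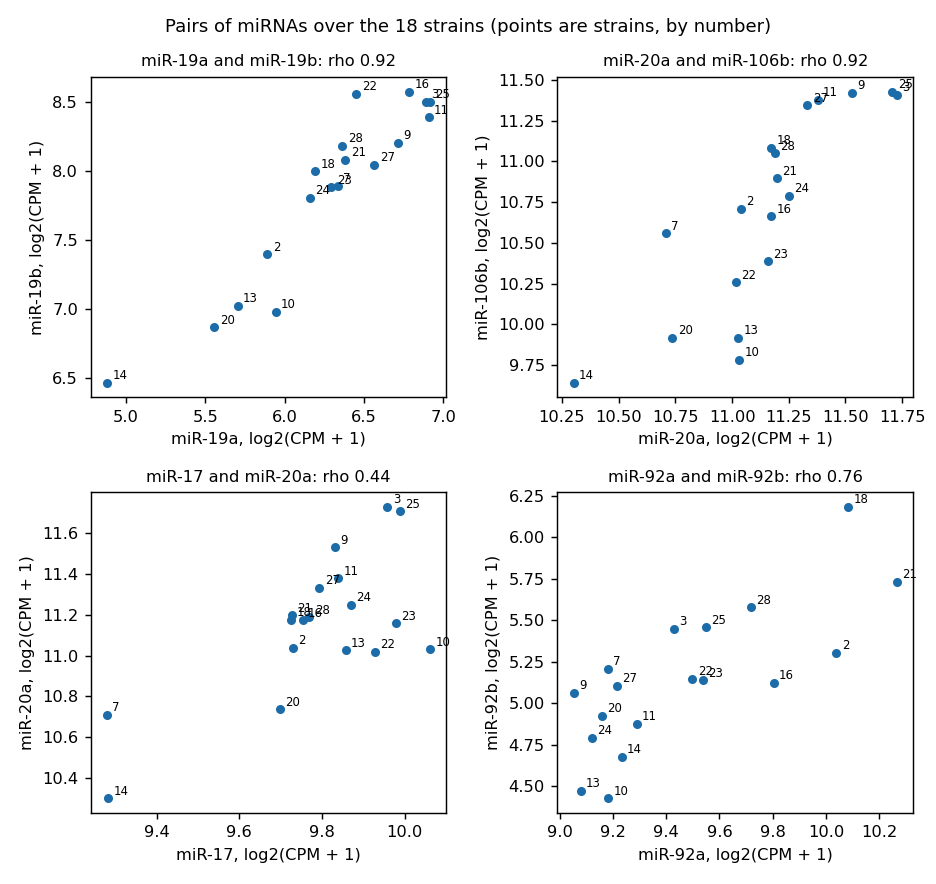
log2(CPM + 1) of 4 pairs of microRNAs in the 18 AKXD strains, points labelled by strain number. miR-19a and miR-19b and the pair miR-20a and miR-106b lie along a line with strain 14 at the low end, miR-17 and miR-20a spread apart once strains 7 and 14 are set aside, and miR-92a and miR-92b rise towards strains 18 and 21.

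The products of the X-linked miR-106a-363 cluster were far lower than their relatives on chromosome 14. miR-20a was 37.3-fold above miR-20b in the median strain, miR-17 47.5-fold above miR-106a and miR-18a 68.6-fold above miR-18b. miR-20b averaged 66.0 ± 22.9 CPM, miR-363 42.1 ± 12.6 CPM, miR-106a 19.0 ± 6.39 CPM and miR-18b, which was below the filter, 6.24 ± 2.07 CPM. Of the 18 pairs of members with its 3 tested products, 1 was called, and it was positive (5.56%, against 1.78% of all pairs). This pair was miR-20a with miR-20b, at rho 0.71 (adjusted permutation p = 0.0437) and r 0.66 (adjusted permutation p = 0.0457), or r 0.74 without strains 14 and 3. Its rho was 0.76 over the 14 strains without 10, 13, 14 and 20, where it was not called. This call lay close to the threshold and was lost in 15 of the 18 panels with 1 strain left out (lowest rho 0.67). miR-19b and miR-92a, whose rows hold both copies, had rho values of 0.08 and 0.02 with miR-363, the product of that cluster with a row of its own that lies next to the second miR-92a copy.

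miR-92a had its highest rho with miR-92b, a product of chromosome 3 that shares its seed and differs at 2 of 21 bases (U10C and G21C, miR-92a's base first). miR-92a had a median of 656 CPM and miR-92b of 34.0 CPM, between 20.5 (strain 10) and 71.7 CPM (strain 18). Their rho was 0.76 (adjusted permutation p = 0.0251) and r 0.77 (adjusted permutation p = 0.00949), or r 0.63 without strains 21 and 18. The call was lost without strain 13 or strain 21 (lowest rho 0.72), and over the 14 strains rho was 0.70 and not called. With upper quartile scaling it was 0.69 and not called (adjusted permutation p = 0.0596), while miR-872* (0.75) and let-7d* (0.70) were called. With the first principal component removed, miR-92a with miR-92b had rho 0.58 and was not called (adjusted permutation p = 0.227). miR-18a, which has another seed, had rho 0.70 with miR-92b (adjusted permutation p = 0.052) and r 0.76 (adjusted permutation p = 0.0135). miR-92a to miR-92b was a steady ratio, with an SD of 0.29 log2, and 1.21% of all pairs had a smaller one. How reads were divided between this near-identical pair is not known, as for miR-17 and miR-20a.

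By seed, the cluster supplied 34.9% (median) of the reads with the miR-17 seed, between 28.2% in strain 14 and 40.7% in strain 25. Within that family miR-20a held a median of 24.7% and miR-17 9.80%, against 44.5% for miR-93, 20.0% for miR-106b, 0.726% for miR-20b and 0.187% for miR-106a. In strain 10 miR-93 alone reached 61.9%, and miR-106b had its lowest share, 8.06%. miR-18a made up nearly all of its family with miR-18b, a median of 98.6% (95.2% in strain 10 to 99.3% in strain 27). miR-19b held a median of 75.1% of the miR-19 reads. In the family of the miR-92a seed, miR-92a had a median of 42.6% (29.2% in strain 10 and 58.9% in strain 21), against 40.4% for miR-25, 11.9% for miR-32, 2.19% for miR-363 and 1.99% for miR-92b.

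**Figure D5:**
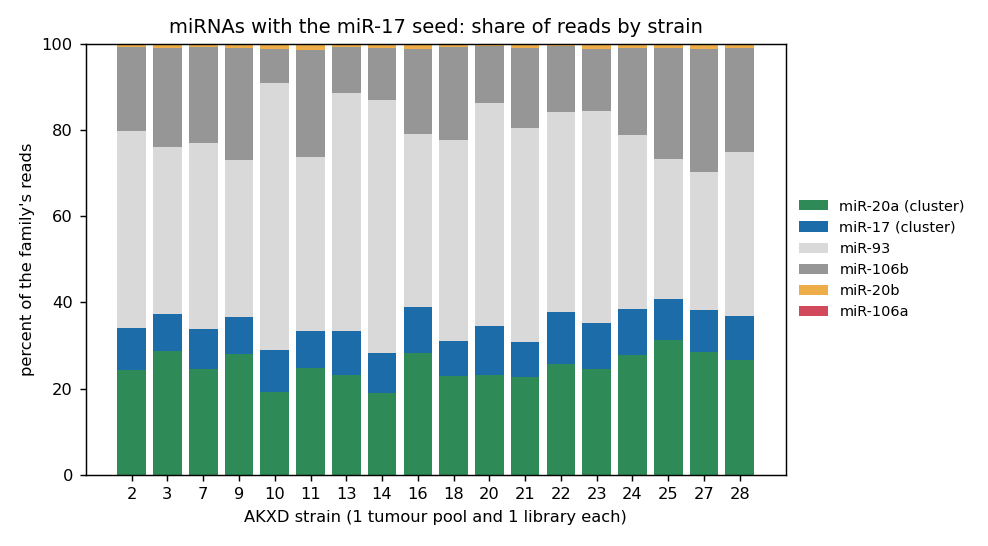
Share of the reads of the 6 microRNAs with the miR-17 seed in each AKXD strain (percent, bars sum to 100). miR-20a and miR-17, the cluster's products, together hold 28.2% (strain 14) to 40.7% (strain 25), and the division between miR-93 and miR-106b moves more than the cluster's total.

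Across all 275 other tested microRNAs, miR-18a had most company. It was called positive with 19 of them and negative with 8, miR-20a with 13 and 3, miR-19b with 8 and 8, and miR-19a with 7 and 7. miR-17 had 0 positive calls and 1 negative, and miR-92a had 1 and 2. In percent these positive calls were 6.91 for miR-18a, 4.73 for miR-20a, 2.91 for miR-19b, 2.55 for miR-19a, 0.364 for miR-92a and 0 for miR-17, against 1.78 for all pairs. The negative calls were 2.91 for miR-18a, 2.91 for miR-19b, 2.55 for miR-19a, 1.09 for miR-20a, 0.727 for miR-92a and 0.364 for miR-17, against 1.09 for all pairs. At an unadjusted p under 0.05 miR-17 had 9 positive and 7 negative partners, 5.82% of the 275, against 19.6% of all pairs. miR-92a had 35 and 37, 26.2%, near the 28.0% of miR-20a and below the 36.4% of miR-18a. By Pearson's r miR-17 had none in either direction, miR-92a 6 and 9, and miR-20a 15 and 4.

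The microRNAs most like miR-18a were miR-183* (rho 0.88), the passenger arm of an epithelial and sensory-cell microRNA, miR-186* (0.86) and miR-106b (0.86), and those most opposed were let-7f (-0.88), a let-7 microRNA linked to differentiation, miR-152 (-0.84) and miR-411 (-0.84), all with an adjusted permutation p of 0.00504. For miR-20a they were miR-106b (0.92), miR-186 (0.87) and miR-497 (0.85), against miR-130b (-0.88), miR-152 (-0.84) and miR-143 (-0.80), a microRNA of smooth muscle and fibroblasts. miR-152 was called as opposed to both. With total reads alone as scaling its rho was 0.16 with miR-18a and 0.08 with miR-20a, the other direction. Under that scaling the other opposed pairs were not called either, at -0.47 for let-7f, -0.26 for miR-411, -0.22 for miR-130b and -0.44 for miR-143 (adjusted permutation p = 0.166 to 0.573). With median of ratios scaling miR-152 with miR-20a was not called (-0.68, adjusted permutation p = 0.0658).

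For miR-19a the closest were miR-96 (0.86), of the same cluster as miR-183, miR-342-3p (0.79) and miR-106b (0.78), against miR-299 (-0.81), miR-379 (-0.79) and miR-380-5p (-0.76), products of the imprinted Dlk1-Dio3 locus. For miR-19b they were miR-96 (0.85), miR-423-5p (0.82) and miR-190 (0.75), against miR-340-5p (-0.79), miR-378 (-0.78) and miR-126-3p (-0.76), an endothelial microRNA. All of these passed the permutation test, with adjusted p-values of 0.00504 to 0.03. miR-96 had the highest rho of both miR-19 members. With total reads alone none of the 6 opposed pairs was called, at -0.03 for miR-299, -0.18 for miR-379, -0.26 for miR-380-5p, -0.29 for miR-340-5p, -0.60 for miR-378 and -0.13 for miR-126-3p (adjusted permutation p = 0.0553 to 0.952). With upper quartile scaling miR-340-5p (-0.68) and miR-126-3p (-0.69) were not called.

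For miR-17 the highest values were miR-24 (0.67), miR-301a (0.60) and miR-9* (0.59), none of which passed (adjusted permutation p = 0.0758 to 0.131). The lowest were miR-1937a (-0.71, adjusted permutation p = 0.0437), miR-1937b (-0.70, adjusted permutation p = 0.056) and miR-1959 (-0.50, adjusted permutation p = 0.222), with values of 0.23, 0.21 and 0.27 when total reads alone were used. Under that scaling miR-24 (0.78) and miR-301a (0.74) were called with miR-17 and miR-9* (0.19) was not, while 6823 of all pairs were called positive. With upper quartile scaling miR-9* (0.76) was called with miR-17, and miR-24 (0.70) and miR-301a (0.46) were not. For miR-92a, miR-92b was followed by let-7d* (0.70) and miR-872* (0.69), which did not pass, and the lowest were miR-98 (-0.79, adjusted permutation p = 0.0218), a let-7 family microRNA, miR-1968 (-0.71, adjusted permutation p = 0.0481) and miR-135a (-0.69, adjusted permutation p = 0.0636). The pairs of miR-98 and miR-1968 with miR-92a were not called with total reads alone (-0.05 and -0.46) or with upper quartile scaling (-0.58 and -0.67). The pair of miR-135a with miR-92a was called with upper quartile scaling (-0.87, adjusted permutation p = 0.00423) and not with total reads alone (-0.38). Over the 14 strains without 10, 13, 14 and 20 none of these 36 closest and most opposed pairs was called. There 31 had an unadjusted permutation p under 0.05, which is no independent check, since the pairs were picked for extreme values over a panel that includes those strains.

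Of the 28 of these 36 pairs that passed, 13 were positive and 15 negative. With total reads alone the 13 positive pairs were called and none of the 15 negative ones. For the 28, Pearson's r had the same sign as rho and a size of 0.61 to 0.94, with adjusted permutation p-values of 0.00296 to 0.0793. Without the 2 strains farthest from the member's median its size was 0.55 to 0.92. The pairs whose r missed the threshold were miR-17 with miR-1937a and miR-92a with miR-1968 (adjusted permutation p = 0.0793 and 0.0621). Their calls by rho were each lost in 14 of the 18 panels with 1 strain left out.

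To the mean of the 6 members' standardized levels, the 10 closest microRNAs were miR-671-5p (rho 0.87), miR-183*, miR-96, miR-106b, miR-297c, miR-342-3p, miR-141*, miR-24-1*, miR-200a and miR-15a (0.70). The 10 most opposed were miR-411 (-0.84), miR-143, miR-340-5p, let-7f, miR-152, miR-184, miR-148b, miR-126-3p, let-7a and miR-34c (-0.68). These are given as a description over 18 strains that share their libraries and scaling.

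The cluster is a MYC target, and 20 microRNAs known as repressed by MYC, among them let-7, miR-15a, miR-26 and miR-29 members, were compared with it. All 20 were tested. Of the 120 pairs, 4 were called positive and 3 negative, shares of 3.33% and 2.50% against 1.78% and 1.09% of all pairs, and the median rho was 0.04 against 0.01. The negative calls were let-7f with miR-18a (rho -0.88), let-7a with miR-18a (-0.75) and let-7a with miR-19b (-0.71, adjusted permutation p = 0.0437). Positive calls included miR-15a with miR-20a (0.80) and with miR-18a (0.80) and miR-30c with miR-19b (0.75, adjusted permutation p = 0.0322). Both directions thus occurred in the list, and by Pearson's r 7 of the 120 pairs were called positive and 9 negative, against 3.47% and 2.81% of all pairs. The calls of miR-15a with miR-20a and miR-18a, and of let-7f with miR-18a, held with each single strain left out. Those of let-7a with miR-18a, let-7a with miR-19b and miR-30c with miR-19b were lost in 6, 12 and 7 of the 18 such panels.

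None of these named calls held without strains 10, 13, 14 and 20. Over those 14 strains rho was -0.77 for let-7f with miR-18a, -0.55 for let-7a with miR-18a and -0.39 for let-7a with miR-19b. It was 0.60 for miR-15a with miR-20a, 0.50 for miR-15a with miR-18a and 0.60 for miR-30c with miR-19b (adjusted permutation p = 0.203 to 0.611). The let-7 pairs were also lost with total reads alone, at -0.47, -0.24 and -0.17, and were smaller with the first principal component removed, at -0.32, -0.39 and -0.22.

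In bulk tumour RNA, fewer cells of a type and less RNA per cell cannot be told apart. Of the 30 pairs of members with the 5 epithelial markers, 2 were called, miR-200a with miR-18a (rho 0.76, adjusted permutation p = 0.0263) and with miR-20a (0.73, adjusted permutation p = 0.0376), both positive. That is 6.67% of the pairs, against 1.78% of all pairs, with a median rho of 0.04. The rho of miR-200c was -0.59 with miR-92a and -0.56 with miR-18a, neither called (adjusted permutation p = 0.131 and 0.151). At an unadjusted p under 0.05 there were 6 positive and 4 negative epithelial pairs, against 10.3% and 9.27% of all pairs. By Pearson's r 3 and 1 were called, against 3.47% and 2.81% of all pairs. The summed epithelial markers had a rho of -0.25 with the mean of the members, as a description. Of the 12 pairs with the 2 endothelial markers, 1 was called, miR-126-3p with miR-19b (-0.76, adjusted permutation p = 0.0251), 8.33% against 1.09% of all pairs. At an unadjusted p under 0.05 there were 4 endothelial pairs, all negative, against 9.27% of all pairs. By Pearson's r 3 were called negative, against 2.81% of all pairs. All of these pairs were with miR-126-3p. The other marker, miR-126-5p, had rho -0.28 with miR-17 and positive values with the other members, up to 0.40 with miR-18a, none called. The summed endothelial markers had a rho of -0.74 with the mean of the members, as a description. That sum was mostly miR-126-3p (mean 12442 CPM, against 1327 CPM for miR-126-5p).

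None of the 24 pairs with the 4 skeletal muscle markers, the 30 with the 5 leukocyte markers, the 18 with the 3 erythroid markers, the 12 with the 2 basal epithelial markers, the 12 with the 2 tested of 4 mesenchymal markers or the 6 with the liver marker miR-122 was called by rho. With 1.78% of all pairs called positive and 1.09% negative, the lack of a call in sets this small tells little. At an unadjusted p under 0.05 none of the muscle, leukocyte and erythroid pairs passed, against 2 positive basal epithelial, 2 negative mesenchymal and 4 negative liver pairs. Over all pairs 10.3% were positive and 9.27% negative at that threshold. By Pearson's r the 2 basal epithelial pairs were called and none of the muscle, leukocyte, erythroid, mesenchymal and liver pairs. Of all pairs 3.47% were called positive and 2.81% negative by Pearson's r. The calls of miR-200a with miR-18a, miR-200a with miR-20a and miR-126-3p with miR-19b were lost in 5, 12 and 8 of the 18 panels with 1 strain left out. Over the 14 strains without 10, 13, 14 and 20 none of the 3 was called, at rho 0.66, 0.62 and -0.52 (adjusted permutation p = 0.29 to 0.456). For the called pairs with MYC-repressed, epithelial and endothelial microRNAs named here, Pearson's r had the same sign and a size of 0.69 to 0.84 (adjusted permutation p = 0.00296 to 0.0326), and of 0.55 to 0.86 without the 2 strains farthest from the member's median.

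In strain 14, which had the lowest value of 4 members, the summed markers of skeletal muscle (303045 CPM against a panel median of 85728), of endothelium (22301 against 12659), of erythroid cells (808 against 436) and of liver (375 against 58.9) were at their highest in the panel. The muscle and endothelial sums there were mostly miR-1 (290869 CPM) and miR-126-3p (20883 CPM). Of the erythroid markers only miR-486 was highest in strain 14 (311 CPM), and miR-451 and miR-144 were highest in strain 27. So were miR-126-5p and miR-133b, while miR-133a was highest in strain 24. No marker of any list was at 0 in any strain. The leukocyte markers summed to 18249 CPM at most (strain 27) and 1573 CPM at least (strain 10). For the basal epithelial markers the largest sum was 10652 CPM (strain 2) and the smallest 1568 CPM (strain 22). The part of these other cells in the members' levels was not tested.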

How the data were processed

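The authors deposited 1 table of log2 values, with 2 decimals, for 583 mature microRNAs in 18 pools. The submitters' processing notes name BWA and mm9, without version or role; neither the counter nor the annotation nor the rule for shared reads is stated in the labels. RNA came from snap-frozen tumours (mirVana kit), per the labels' protocols. Raised to a linear scale, the low deposited values of each library are whole multiples of the value of 1 read (0.999 to 1.39). This held for 100.0% of 3813 values of up to 50 reads, within 0.006 log2. Larger values were not checked. With 2 decimals their read numbers, those of the members included, are rounded estimates. Intervals use these read numbers. A row without reads is written as 0, and so is a single read in strain 25. Because the unit is log2, no count model was fitted.

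Values were made linear, and 20 rows in 8 sets with identical values were counted once per set, leaving 571. Library scaling used trimmed means of M values, leaving out 30% of log ratios and 5% of abundances, and log2(CPM + 1) was used, which understates changes of low microRNAs. Tests covered the 281 that averaged 10 CPM or more. Spearman rho was tested for all 39340 pairs with 100000 two-sided permutations of the strains, adjusted by Benjamini-Hochberg, with a threshold of 0.05, and Pearson's r likewise. Steps were tested on simulated data. SDs, ratios and shares carry no test.

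Named besides the members were their passenger arms, the related clusters and seed families, the 3 highest and 3 lowest rho per member, the 10 microRNAs most and least like the members' mean, and up to 4 called microRNAs per list. The members and lists were chosen with earlier results of these data known. The list repressed by MYC and the marker lists come from general knowledge. Alternatives were other scalings, filters, pseudocount and correlation, removal of the first principal component, and strains left out. All 18 rows looked up had a sequence in RefSeq's table for GRCm38.p6. Locus coordinates are GENCODE's for GRCm38. Python 3.11.15 with numpy 2.4.6, scipy 1.17.1, pandas 2.3.3 and matplotlib 3.10.9 was used.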

Additional observations from a re-analysis of the deposited data

How the results depend on the processing

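No paired analysis was possible because every strain has 1 library. Called member pairs, 5 as reported, were 15 with total reads alone, 3 with median of ratios scaling, 2 without a filter on the mean, 2 (of 10) at a mean of at least 100 CPM, 0 without strains 10, 13, 14 and 20, and 2 to 5 with each strain left out, where strains 2, 3, 7, 10, 13, 14, 20, 23, 24 and 28 each took it to 2 or 3. Among all pairs, 701 positive and 428 negative calls became 6823 and 189 with total reads alone, 323 and 174 at 100 CPM, 12 and 2 without the 4 strains, 1366 and 1106 by Pearson's r, 200 and 81 without the first principal component, and 339 to 793 and 148 to 501 with each strain left out (339 and 148 without strain 10, 383 and 158 without strain 13, 369 and 162 without strain 20, 539 and 269 without strain 14). These all-pairs calls were 964 and 388 with upper quartile scaling, 736 and 520 with median of ratios scaling, and 653 and 334 without a filter on the mean. The median rho of member pairs was 0.87 with total reads alone. The pseudocount of 5 CPM and upper quartile scaling moved none of the counts and SDs beyond their limits. Shares of reads do not depend on either and were not recomputed. Upper quartile scaling did lose 12 and gain 4 calls among the member pairs and the other pairs followed.

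With total reads alone the SDs were 0.42 (miR-17), 0.90 (miR-18a), 0.77 (miR-19a), 0.58 (miR-20a), 0.91 (miR-19b) and 0.61 (miR-92a), and miR-17 with miR-17* had rho 0.91. Without the 4 strains they were 0.33 (miR-18a), 0.32 (miR-19a), 0.27 (miR-20a) and 0.35 (miR-19b), and ratio SDs were 0.35 (miR-17 to miR-18a), 0.31 (miR-17 to miR-19a), 0.19 (miR-17 to miR-20a), 0.32 (miR-17 to miR-19b), 0.28 (miR-18a to miR-20a), 0.42 (miR-18a to miR-92a), 0.24 (miR-19a to miR-20a), 0.18 (miR-19a to miR-19b) and 0.32 (miR-20a to miR-19b). With each strain left out, SDs were 0.17 to 0.23 (miR-17), 0.42 to 0.57 (miR-19a) and 0.28 to 0.37 (miR-20a). Leaving out miR-19b and miR-92a by construction raised the median shares to 23.1% (miR-17), 11.6% (miR-18a), 2.12% (miR-19a) and 61.4% (miR-20a).

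These rho values changed sign, and the cause was not tested. With total reads alone they were 0.76 (miR-17 with miR-92a), 0.23 (with miR-1937a), 0.21 (with miR-1937b) and 0.27 (with miR-1959), 0.16 (miR-18a with miR-152) and 0.079 (miR-20a with miR-152). Without the 4 strains they were -0.073 (miR-17 with miR-18a), -0.27 (miR-19a with miR-92a), -0.38 (miR-20a with miR-92a) and 0.21 (miR-20a with miR-20a*). By Pearson's r miR-17 with miR-92a was 0.016. Without the first component they were -0.33 (miR-19a with miR-92a), -0.16 (miR-20a with miR-92a), -0.30 (miR-19b with miR-92a), 0.036 (miR-19b with miR-340-5p) and 0.026 (miR-20a with miR-20a*). miR-17 with miR-18a was -0.10 to 0.19 with each strain left out. Depth limits miR-19a* and miR-92a*, with at most 9 reads a library.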

Other observations

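Passenger arms of the related clusters were measured as well. miR-106b* averaged 52.0 ± 13.9 CPM (SD, n = 18) and was highest in strain 10, at 94.4 CPM, where miR-106b itself was at 879 CPM against a panel median of 1721 CPM. miR-93* averaged 2.95 ± 1.08 CPM, and miR-20b* had 1 to 9 reads per library. Within the X-linked cluster, miR-20b with miR-363 had rho 0.85 (adjusted permutation p = 0.00504) and miR-106a with miR-20b 0.73 (adjusted permutation p = 0.038), with r 0.82 and 0.80, over the same 18 libraries.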
